A study of Mus musculus with 14 samples.

Results

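The enzymes described here remove superoxide and peroxides. They are the superoxide dismutases Sod1, Sod2 and Sod3, catalase (Cat), the glutathione peroxidases Gpx1 and Gpx4, the peroxiredoxins Prdx3 and Prdx5, and the mitochondrial thioredoxin Txn2 with its reductase Txnrd2. The 10 genes were chosen by function, with earlier results of these data known. Each was represented by the array row that carried its symbol alone, or by the brightest such row where there were several. A row was found for 9 of the 10 genes, out of 19938 genes with a row of their own, and Prdx5 was not analysed here. The transcripts were measured in livers of male C57BL/6 mice, 24 weeks of age, after 20 weeks of a high-fat diet that both groups received. The HFM group (n = 7 mice) had been given MSCs, mesenchymal stem cells of human bone marrow from a single donor that carried GFP. The HFS group (n = 7 mice) had been given the vehicle, called saline in the labels and PBS in the methods. The injection was into the tail vein, and livers were taken 24 h later, with 1 Affymetrix mouse gene array per mouse. All values are log2 expression as deposited, so that a difference of 1 is a doubling, and the level of one gene cannot be set against the level of another.

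Superoxide is formed when electrons leave the respiratory chain or an NADPH oxidase and reduce oxygen. Superoxide dismutases turn it into hydrogen peroxide, with Sod1 in the cytosol, Sod2 in the mitochondrial matrix and Sod3 outside the cell. Hydrogen peroxide is then destroyed by catalase in peroxisomes, by glutathione peroxidases with glutathione, and by peroxiredoxins, which are renewed by thioredoxin and its reductase with NADPH. Hepatocytes are rich in mitochondria and in peroxisomes and hold much of the catalase of the body. The study measured superoxide dismutase activity and the production of hydrogen peroxide in livers of such mice, and the arrays give the transcripts of the same system. It reported no group difference in dismutase activity. Isolated mitochondria of MSC-treated mice made more hydrogen peroxide with antimycin A, and not under the other conditions. Enzyme activity and transcript level are different measures.

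The arrays were alike in overall level, with medians between 4.24 and 4.35. Pairs of arrays correlated at 0.970 to 0.991 over all rows, and the median was 0.986 both for pairs of one group and for pairs of different groups. Hepatocyte markers were bright, with Alb at 13.43 in HFM livers and 13.52 in HFS livers and Apoa1 at 12.73 in HFM livers and 12.75 in HFS livers, and 0 of 9 measured hepatocyte markers had an unadjusted p under 0.05 from limma. Alb had a difference of -0.09 (standard error 0.05), with an unadjusted p of 0.0980 from limma and p = 0.00816 from the exact permutation test, and 5 HFM mice lay below every HFS mouse. All 14 measured markers of Kupffer cells and macrophages had a log2 difference (HFM minus HFS) above 0, with 5 past that limma threshold and a median of 0.29. So had all 15 acute phase genes, with 8 past it and a median of 0.29. Of 23410 rows tested with limma 0 had an adjusted p under 0.05, and 1514, or 6.47%, had an unadjusted p under 0.05.

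Of the 9 measured defence genes, 8 had a log2 difference (HFM minus HFS) above 0 and 1 below, where 51.4% of all rows were above 0. The median was 0.09 over the 9 genes and 0.00 over all rows. Over the brighter rows alone, which hold all 9 genes, it was 0.02. The 9 genes share mice and arrays, so their directions are not 9 independent results. Sod3 was the only one past an unadjusted p of 0.05 with limma, in the higher direction, which 3.57% of all rows reached, while 2.9% of rows and 0 of the 9 genes were lower. None reached both an unadjusted p below 0.01 and a 1.2-fold difference, filters that the study states for its arrays and that 0.696% of rows reached. The study also names a Bonferroni correction, which these filters leave out. None of the 9 genes had an adjusted p under 0.05. For none of the 9 genes were the groups apart, as was the case in 0.0555% of rows. The 95% intervals of 6 genes, Sod1, Sod2, Cat, Prdx3, Txn2 and Txnrd2, lay within 1.2-fold in both directions. Those of Sod3, Gpx1 and Gpx4 reached beyond 1.2-fold on the higher side. A larger amount of a transcript per cell and more cells that hold it cannot be told apart in whole liver.

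**Figure D1:**
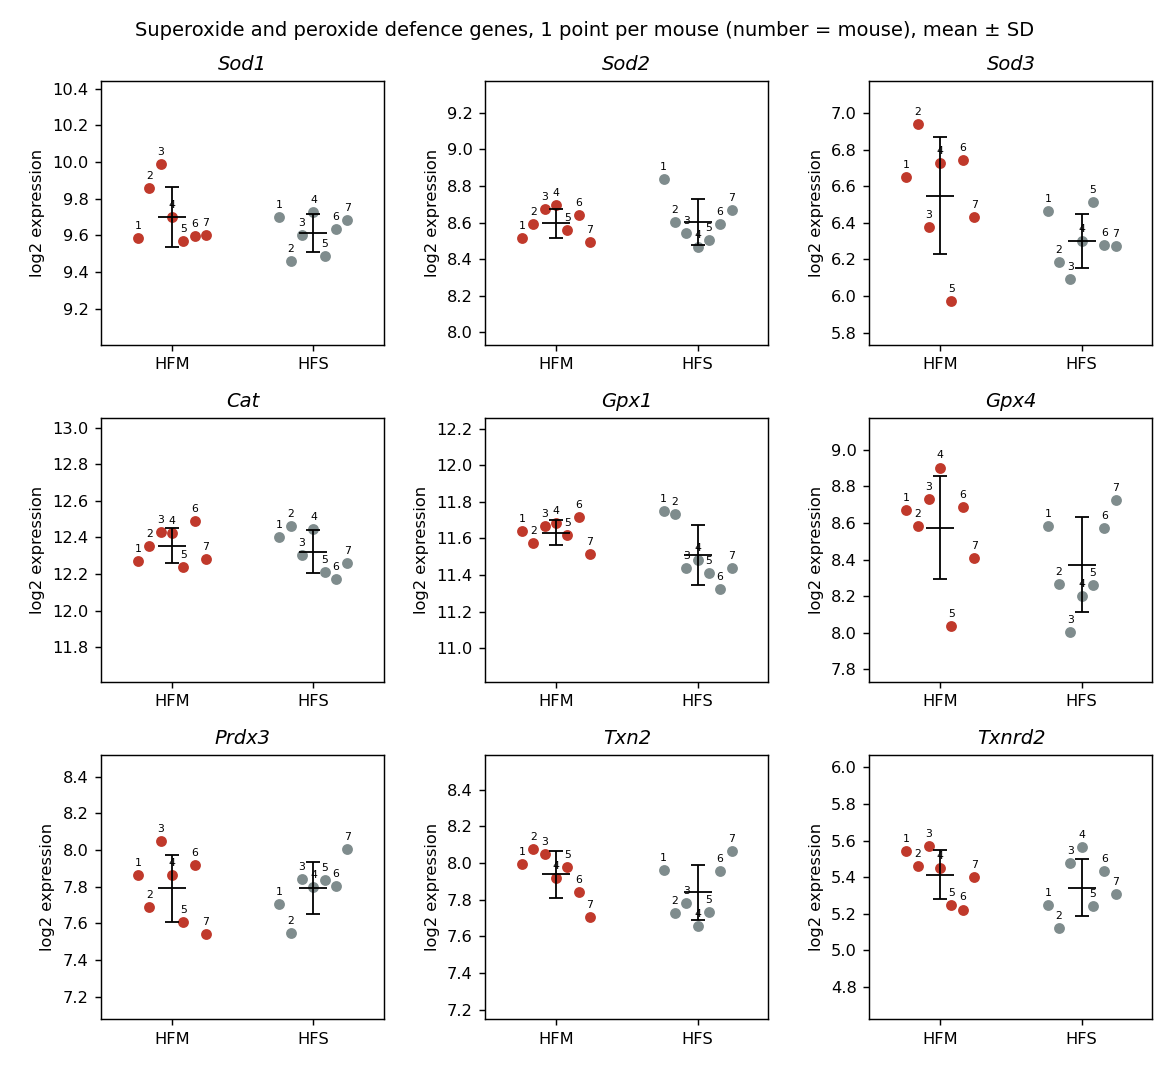
Expression (log2, as deposited) of the 9 measured genes in HFM (red) and HFS (gray) livers, with 1 numbered point per mouse and the mean ± SD of 7 mice; every panel spans the same log2 range. The groups overlapped in all 9 panels, and Sod3 was at 6.55 ± 0.32 in HFM livers and 6.30 ± 0.15 in HFS livers.

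Sod3, the extracellular superoxide dismutase, binds copper and zinc and is held at cell surfaces and in matrix. Its gene lies on chromosome 5 at 52363804 to 52369738 (GRCm38.p6). The lowest, median and highest values were 5.97, 6.65 and 6.94 in HFM livers, and 6.09, 6.28 and 6.51 in HFS livers. Thus every HFS mouse was exceeded by 4 HFM mice, while HFM5 lay below all of them and was the lowest of the 14 mice. The means were 6.55 ± 0.32 in HFM livers and 6.30 ± 0.15 in HFS livers (SD, n = 7 mice each), and 6 of 7 HFM mice were above the HFS mean. The groups differed by 0.25 (standard error 0.12), or 1.19-fold, with a 95% interval of 1.00-fold to 1.41-fold. The unadjusted p from limma was 0.0482, the adjusted p was 0.772 and the two-sided exact permutation test gave p = 0.0874. The study picked Sod3 for its gene lists from these same livers, so the direction here is not independent evidence.

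The call of Sod3 depended on single mice and on the settings. It was lost with the replicate number as a block (limma p of 0.0599), with quantile normalization (0.0718), with all rows tested (0.0627), with only the brighter rows tested (0.0524) and with no moderation of the variances (0.0864). Without HFM5 the difference was 0.34, with an unadjusted p of 0.00176 from limma and an adjusted p of 0.268. It stayed under an unadjusted p of 0.05 without HFM3, HFM5, HFM7, HFS1 or HFS5, and not without HFM1, HFM2, HFM4, HFM6, HFS2, HFS3, HFS4, HFS6 or HFS7. Without HFM2, the highest mouse, it was 0.18 with a p of 0.121 from limma. Markers of Kupffer cells and macrophages moved the same way as Sod3. The mean of these 14 markers, relative to the mean of all mice, ran from -0.25 to 0.76 in HFM livers and from -0.51 to 0.53 in HFS livers. The HFM mouse with the highest marker mean was HFM2 and the one with the lowest was HFM5, at 0.76 and -0.25, which were also the highest and the lowest HFM mouse for Sod3. The order of the other mice differed between the measures. HFM3 had a marker mean of 0.25 and the second lowest Sod3 value of the HFM mice, at 6.38, and HFM4 had a marker mean of -0.06 and Sod3 at 6.73. Among HFS mice both were highest in HFS5, while the marker mean was lowest in HFS7 and Sod3 in HFS3. The marker Clec4f, a receptor of Kupffer cells, was at 7.83 in HFM livers and 7.63 in HFS livers. Its difference was 0.19 (standard error 0.19), with an unadjusted p of 0.337 from limma, so Clec4f was not among the 5 markers past 0.05. Of 10 markers of stellate cells and vascular smooth muscle 7 were above 0 and 3 below, and 1, Pdgfrb at 0.22, passed an unadjusted p of 0.05 with limma. That threshold was passed by 6.47% of all rows. The markers below 0 were Acta2 at -0.12, Des at -0.10 and Myh11 at -0.06. The mean of the 10 ran from -0.12 in HFM5 to 0.21 in HFM6 among HFM mice. In HFS livers it ran from -0.13 to 0.07. Of 10 endothelial cell markers 5 were above 0, 5 below, and 0 passed that threshold. Their mean ran from -0.17 in HFM7 to 0.17 in HFM3 among HFM mice, with HFM5 at -0.16. In HFS livers it ran from -0.23 to 0.10. The low values of HFM5 were thus not particular to macrophage markers. Of 10 neutrophil markers 9 were above 0 and 1, Cxcr2, passed that threshold, with a median of 0.17. Cxcr2 was at 2.89 in HFM livers and 2.66 in HFS livers, below the median of every array. Whether that row was above background cannot be said without detection calls. The mean of the 10 neutrophil markers ran from -0.19 to 1.18 in HFM livers and from -0.24 to 0.41 in HFS livers, the 1.18 being that of HFM2. The part of these cells in the Sod3 values was not tested.

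The genes whose deviations from the group mean followed those of Sod3 most closely over the 14 mice were Gnai2 (r = 0.91), Wasf2 (r = 0.90) and Il10rb (r = 0.89). Gnai2 encodes an inhibitory G protein subunit, Wasf2 a protein that drives actin assembly, and Il10rb a receptor chain for interleukin-10. Their log2 differences were 0.17 (standard error 0.09) for Gnai2, 0.16 (standard error 0.09) for Wasf2 and 0.18 (standard error 0.14) for Il10rb. These rows were taken as the highest of all genes and carry no test, and Gnai2 is also in the study's gene lists from these livers. With a score of 15 acute phase genes, deviations of Sod3 gave r = 0.43 and rho = 0.52 over 14 mice (permutation test within groups, p = 0.0297 for r and p = 0.0496 for rho). After adjustment over the 9 genes compared, the p was 0.267 for r and 0.446 for rho (permutation test). The r was 0.46 within HFM mice, 0.72 within HFS mice and 0.45 without HFS5 and HFS6, the mice farthest from the median of the score. No other defence gene passed a permutation p of 0.05 in this comparison, with r between -0.34 (Cat) and 0.22 (Gpx4). The r of Cat was 0.53 within HFM mice, -0.64 within HFS mice and 0.13 without HFS5 and HFS6, so its sign was not stable.

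Sod1, the copper and zinc dismutase of the cytosol, lies on chromosome 16 at 90220762 to 90226333. It had its lowest, median and highest values at 9.57, 9.60 and 9.99 in HFM livers, and at 9.46, 9.63 and 9.73 in HFS livers. HFM2 and HFM3 lay above every HFS mouse, and the other 5 HFM mice lay within the range of the HFS mice. The means were 9.70 ± 0.16 in HFM livers and 9.61 ± 0.10 in HFS livers (SD, n = 7 mice each). The groups differed by 0.09 (standard error 0.08), or 1.06-fold, with a 95% interval of 0.952-fold to 1.19-fold (exact permutation test, p = 0.276).

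Sod2 is the manganese dismutase of the mitochondrial matrix, encoded on chromosome 17 at 13007839 to 13018119, and many inflammatory signals are known to induce it. Its lowest, median and highest values were 8.49, 8.59 and 8.70 in HFM livers, and 8.47, 8.59 and 8.84 in HFS livers. HFS1 was the highest of the 14 mice and the groups otherwise covered the same range. The means were 8.60 ± 0.08 in HFM livers and 8.60 ± 0.12 in HFS livers (SD, n = 7 mice each). The difference was -0.01 (standard error 0.06), with a 95% interval of 0.905-fold to 1.09-fold. The acute phase score ran from 0.08 to 0.56 in HFM livers and from -0.87 to 0.62 in HFS livers, while the within-group SD of Sod2 was 0.10, smaller than in all but 12.8% of rows. Deviations of Sod2 and of this score gave r = -0.04 and rho = 0.20 over 14 mice (permutation test within groups, p = 0.919 for r and p = 0.509 for rho). The r was 0.21 within HFM mice, -0.10 within HFS mice and 0.35 without HFS5 and HFS6. It thus rested on few mice, and a relation is neither shown nor excluded.

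**Figure D2:**
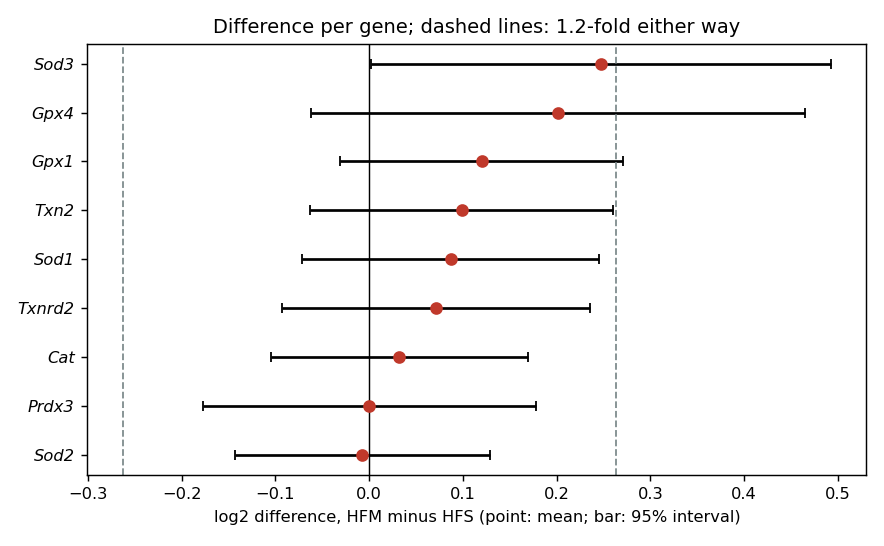
Log2 difference (HFM minus HFS) of the 9 genes with its 95% interval from limma; dashed lines mark 1.2-fold in either direction. The difference ran from -0.01 (Sod2) to 0.25 (Sod3), and only the intervals of Sod3, Gpx4 and Gpx1 reached beyond the line on the right.

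Of the enzymes that destroy peroxides, Gpx1 is a selenium enzyme of the cytosol and mitochondria that reduces hydrogen peroxide with glutathione. Its gene lies on chromosome 9 at 108339080 to 108340342. Its lowest, median and highest values were 11.51, 11.64 and 11.72 in HFM livers, and 11.32, 11.44 and 11.75 in HFS livers. The HFS mice were split, with HFS1 at 11.75 and HFS2 at 11.73 above every HFM mouse and the other 5 below every HFM mouse. The means were 11.63 ± 0.07 in HFM livers and 11.51 ± 0.16 in HFS livers (SD, n = 7 mice each), and 7 of 7 HFM mice were above the HFS mean. HFM livers differed from HFS livers by 0.12 (standard error 0.07), or 1.09-fold, with a 95% interval of 0.979-fold to 1.21-fold. Limma gave an unadjusted p of 0.112 and an adjusted p of 0.808, and the exact permutation test p = 0.0997. Without HFS1 the difference was 0.16 with an unadjusted p of 0.0332 from limma, and without HFS2 it was 0.16 with a p of 0.0386.

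Gpx4 is the selenium enzyme that reduces lipid hydroperoxides within membranes and so guards cells from ferroptosis. It lies on chromosome 10 at 80047166 to 80056439. The lowest, median and highest values were 8.04, 8.67 and 8.90 in HFM livers, and 8.002, 8.26 and 8.73 in HFS livers. HFM4 and HFM3 lay above every HFS mouse, HFM5 lay far below the other HFM mice, and the HFS mice spread from HFS3 at the low end to HFS7. The means were 8.57 ± 0.28 in HFM livers and 8.37 ± 0.26 in HFS livers (SD, n = 7 mice each), with 6 of 7 HFM mice above the HFS mean. HFM livers differed from HFS livers by 0.20 (standard error 0.13), or 1.15-fold, with a 95% interval of 0.958-fold to 1.38-fold (exact permutation test, p = 0.187). Without HFM5 it was 0.29, with an unadjusted p of 0.0163 and an adjusted p of 0.461 from limma. A second row with the symbol Gpx4 gave a difference of 0.21 (standard error 0.12) and correlated with the first at 0.994 over the 14 mice.

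Cat encodes catalase, the peroxisomal enzyme that splits hydrogen peroxide into water and oxygen, on chromosome 2 at 103453904 to 103485153. Its lowest, median and highest values were 12.24, 12.35 and 12.49 in HFM livers, and 12.17, 12.30 and 12.46 in HFS livers. The groups covered nearly the same range, with HFM6 the highest mouse and HFS6 the lowest. The means were 12.35 ± 0.10 in HFM livers and 12.32 ± 0.12 in HFS livers (SD, n = 7 mice each). The difference was 0.03 (standard error 0.07), with a 95% interval of 0.930-fold to 1.12-fold (exact permutation test, p = 0.570).

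Prdx3, Txn2 and Txnrd2 form the peroxide pathway of the mitochondrial matrix. Prdx3, the peroxiredoxin that takes up most matrix peroxide, lies on chromosome 19 at 60864066 to 60874538. It had its lowest, median and highest values at 7.54, 7.86 and 8.05 in HFM livers, and at 7.54, 7.81 and 8.01 in HFS livers. The groups covered nearly the same range. Both averaged 7.79, with SDs of 0.18 in HFM livers and 0.14 in HFS livers (n = 7 mice each). The difference was 0.00 (standard error 0.08), with a 95% interval of 0.884-fold to 1.13-fold (exact permutation test, p = 0.999).

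Txn2, the thioredoxin that renews Prdx3, is encoded on chromosome 15 at 77915051 to 77928994. Its lowest, median and highest values were 7.71, 7.98 and 8.08 in HFM livers, and 7.66, 7.78 and 8.06 in HFS livers. Of the HFM mice 6 of 7 were above the HFS mean, while HFS1, HFS6 and HFS7 were all at 7.96 or higher. The means were 7.94 ± 0.13 in HFM livers and 7.84 ± 0.15 in HFS livers (SD, n = 7 mice each), and differed by 0.10 (standard error 0.08). The 95% interval of this difference was -0.06 to 0.26 (exact permutation test, p = 0.209). Txnrd2, the selenium enzyme that reduces Txn2 with NADPH, lies on chromosome 16 at 18426417 to 18479073. Its lowest, median and highest values were 5.22, 5.45 and 5.57 in HFM livers, and 5.12, 5.31 and 5.56 in HFS livers. The means were 5.41 ± 0.14 in HFM livers and 5.34 ± 0.16 in HFS livers (SD, n = 7 mice each), and 5 of 7 HFM mice were above the HFS mean. The groups differed by 0.07 (standard error 0.08), or 1.05-fold, with a 95% interval of 0.937-fold to 1.18-fold (exact permutation test, p = 0.372).

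Mice differed in how many of these genes they had above the mean of the 14 mice. HFM4 had 9 of 9 above it, HFM3 had 8, HFM2 had 7 and HFM1 and HFM6 had 6 each, whereas HFM5 and HFM7 had 2 each. Among HFS mice the counts were 7 in HFS1, 5 in HFS7, 4 in HFS4 and HFS6, 3 in HFS2 and 2 in HFS3 and HFS5. Averaged over the 9 genes and set against the mean of all mice, values ran from -0.14 in HFM5 to 0.16 in HFM3 among HFM mice and from -0.11 to 0.06 among HFS mice. The genes also differed in their spread between mice of one group. The within-group SD was 0.27 for Gpx4 and 0.25 for Sod3, larger than in 93.9% and 90.9% of all rows, and 0.10 for Sod2 and 0.11 for Cat, larger than in 12.8% and 14.1% of them. The median over all rows was 0.15.

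**Figure D3:**
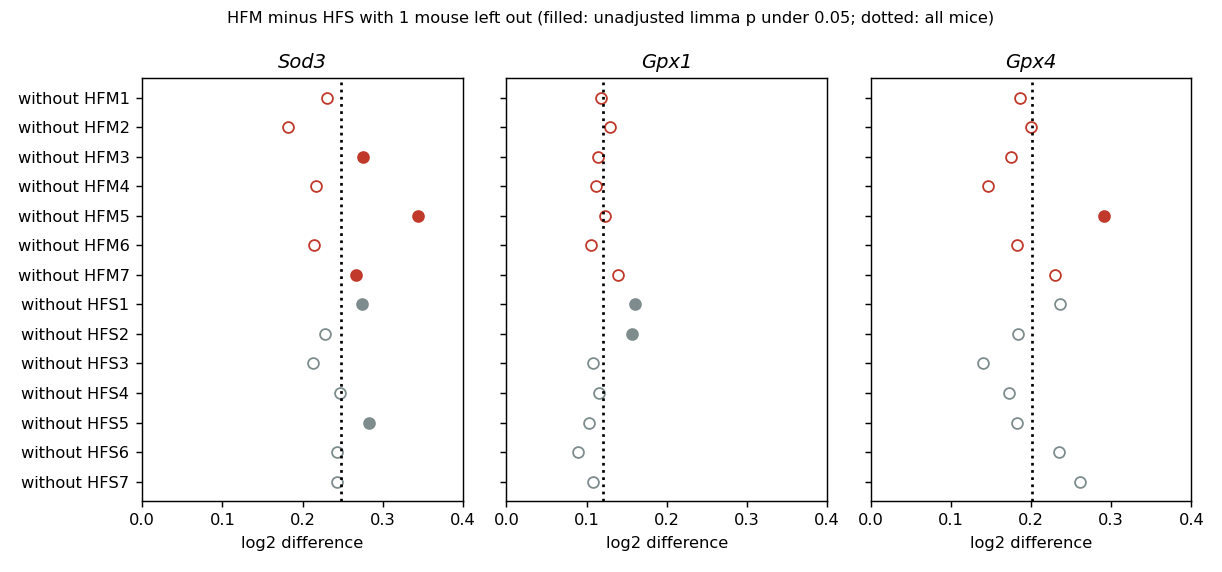
Log2 difference (HFM minus HFS) of Sod3, Gpx1 and Gpx4 with 1 mouse left out at a time, HFM mice in red above HFS mice in gray; filled points had an unadjusted limma p under 0.05 and the dotted line is the value from all 14 mice. Sod3 ran from 0.18 without HFM2 to 0.34 without HFM5, Gpx1 from 0.09 to 0.16 and Gpx4 from 0.14 to 0.29.

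With group means removed, the deviations of Cat and Gpx1 had the highest correlation of the 36 pairs, at r = 0.74 and rho = 0.73 over 14 mice (permutation test within groups, p = 0.00338 for r and p = 0.00559 for rho). The r was 0.70 within HFM mice, 0.80 within HFS mice and 0.65 without HFM6 and HFS2, the mice farthest from the median of Cat. After adjustment over the 36 pairs the p was 0.122 for r and 0.101 for rho (permutation test), and none of the 36 pairs passed an adjusted p of 0.05, where 6 passed an unadjusted p of 0.05 for r. Sod2 followed Gpx4 with r = 0.62 and rho = 0.77 (permutation test, p = 0.0188 for r and p = 0.0032 for rho, adjusted p = 0.278 for r and 0.101 for rho), and r was 0.65 without HFS1 and HFS4. Sod1 followed Txnrd2 with r = 0.60 and rho = 0.65, and r was 0.56 without HFM2 and HFM3. The other pairs past an unadjusted p of 0.05 for r (permutation test) fell more or were weaker. For Sod2 and Gpx1 r was 0.61, and 0.41 without HFS1 and HFS4. For Sod3 and Gpx4 it was 0.60, and 0.43 without HFM2 and HFM5. For Sod2 and Txn2 it was 0.57, and 0.47 without HFS1 and HFS4. Of all 36 pairs 30 had an r above 0, with a median of 0.22, and the lowest was -0.45 between Gpx1 and Txnrd2. The values of one mouse share an array and its normalization, so these pairs are not independent of each other.

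The 250 bases before the start sites of Cat and Gpx1 are shown because these genes varied together most closely, from RefSeq on GRCm38.p6 and on the strand of the gene, with capitals for each CCAAT box (CCAAT) and GC box (GGGCGG) on either strand. The stretch of Cat is chr2:103485154-103485403 on the minus strand and that of Gpx1 is chr9:108338830-108339079 on the plus strand.
Cat: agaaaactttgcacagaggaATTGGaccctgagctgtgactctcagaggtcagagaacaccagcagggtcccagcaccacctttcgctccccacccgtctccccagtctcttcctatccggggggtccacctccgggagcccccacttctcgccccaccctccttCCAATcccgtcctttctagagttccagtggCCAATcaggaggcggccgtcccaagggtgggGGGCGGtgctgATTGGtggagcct
Gpx1: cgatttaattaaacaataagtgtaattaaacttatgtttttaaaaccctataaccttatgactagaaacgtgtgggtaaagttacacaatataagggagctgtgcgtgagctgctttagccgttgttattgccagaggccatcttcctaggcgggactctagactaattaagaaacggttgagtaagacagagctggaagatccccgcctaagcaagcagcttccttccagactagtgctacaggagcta
Cat held 4 CCAAT boxes, which 33.8% of 32851 promoters of this length hold at least once, and 1 GC box, which 32.7% hold. Gpx1 held neither, and its stretch had 42.0% of G and C bases, against 62.0% for Cat. Neither held a TATA box (TATAAA, in 12.4% of promoters), the core of an antioxidant response element (TGACNNNGC, in 10.2%) or an AP-1 site (TGACTCA, in 4.46%), whose letters can overlap those of TGACNNNGC. Such matches of letters describe the stretch and do not show that a factor binds there. Promoters were found for 9 of the 10 genes, and that of Sod3 was not among them.

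**Figure D4:**
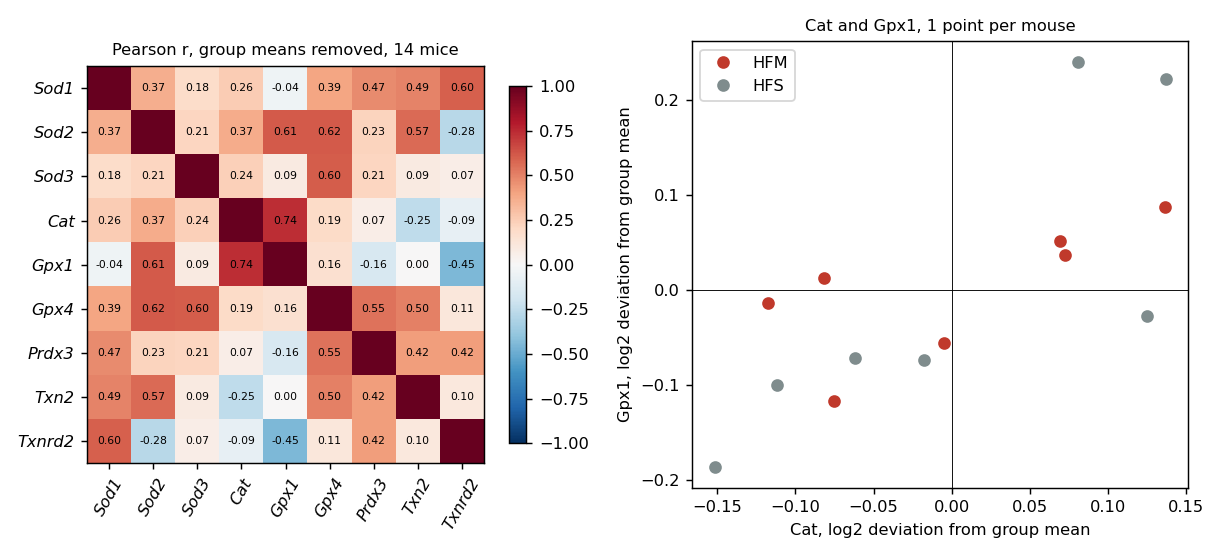
Left, Pearson r between the 9 genes over 14 mice after the group mean was removed; right, deviations of Cat and Gpx1 from the group mean (log2) in HFM (red) and HFS (gray) mice, 1 point per mouse. Cat and Gpx1 had the highest r, at 0.74, and Gpx1 and Txnrd2 the lowest, at -0.45.

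Of the other enzymes that reduce peroxides, 3 of 9 measured were above 0 and 6 below, with 2 lower and 0 higher at an unadjusted p of 0.05 from limma. Of all rows 2.9% were lower and 3.57% higher at that threshold. Prdx1, the abundant peroxiredoxin of the cytosol, was at 10.31 ± 0.17 in HFM livers and 10.54 ± 0.21 in HFS livers (SD, n = 7 mice each). HFM livers differed from HFS livers by -0.22 (standard error 0.10), with 3 HFM mice below every HFS mouse, an unadjusted p of 0.0314 from limma and p = 0.0548 from the exact permutation test. A second row of Prdx1 gave -0.18 (standard error 0.10). Gpx2, a glutathione peroxidase best known from gut epithelium, was at 3.27 ± 0.28 in HFM livers and 3.57 ± 0.29 in HFS livers (SD, n = 7 mice each). Both means lie below the median of every array, the row was not among the brighter rows, and whether it was above background cannot be said without detection calls. Its difference was -0.31 (standard error 0.13), with an unadjusted p of 0.0322 from limma and p = 0.0682 from the exact permutation test. Both calls were lost with the median of each array subtracted and with no moderation of the variances. That of Prdx1 was lost without HFM1, HFM2, HFM7, HFS3, HFS4 or HFS7, and that of Gpx2 without HFM3, HFM4, HFM7, HFS1, HFS3 or HFS4. Prdx2, a cytosolic peroxiredoxin, had a difference of 0.15 (standard error 0.09) in one row and of -0.01 (standard error 0.09) in the other.

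In the thioredoxin and glutaredoxin system 0 of 14 genes passed that threshold, with a median of -0.02, and those with the smallest p were Glrx5, a mitochondrial glutaredoxin, at 0.11 (standard error 0.07), and the sestrins Sesn3 at 0.16 (standard error 0.12) and Sesn1 at 0.10 (standard error 0.07). In the synthesis and reduction of glutathione 0 of 9 passed it, with a median of -0.01. Gsr, the reductase that renews glutathione, had a difference of -0.10 (standard error 0.09), Slc7a11, the cystine importer, of -0.05 (standard error 0.06) and Gss, which completes glutathione, of 0.08 (standard error 0.12). Of the genes that supply NADPH, 9 of 11 were above 0. At that threshold 3.57% of all rows were higher, and 1 of these 11 genes. This was Aldh1l1, a folate enzyme of hepatocytes that yields NADPH, at 8.96 ± 0.19 in HFM livers and 8.67 ± 0.28 in HFS livers (SD, n = 7 mice each), with 7 of 7 HFM mice above the HFS mean. Its difference was 0.28 (standard error 0.11), with an unadjusted p of 0.0227 from limma and p = 0.0490 from the exact permutation test. The limma call was lost without HFM3, HFS3 or HFS4. Mthfd1, another folate enzyme, had a difference of 0.12 (standard error 0.10) and Pgd, of the pentose phosphate pathway, of 0.13 (standard error 0.15).

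Of the genes that bring copper, manganese and selenium to these enzymes, 9 of 17 were above 0, with 2 higher and 0 lower at an unadjusted p of 0.05 from limma. At that threshold 3.57% of all rows were higher and 2.9% lower. Atox1 carries copper to the secretory pathway, where Sod3 is loaded with it. Its lowest, median and highest values were 7.71, 8.04 and 8.19 in HFM livers, and 7.47, 7.80 and 7.93 in HFS livers, and 4 HFM mice exceeded every HFS mouse. The groups differed by 0.27 (standard error 0.09), or 1.2-fold, with an unadjusted p of 0.00863 and an adjusted p of 0.714 from limma. The exact permutation test gave p = 0.0181. Atox1 thus narrowly passed the p and fold filters, as did 0.696% of all rows, without the study's Bonferroni correction. It stayed under an unadjusted p of 0.05 in all 14 fits without 1 mouse and in all 10 other settings. Over these fits its difference ran from 0.22 to 0.31 and the limma p reached 0.0253, so the filters were not passed in all of them. Trnau1ap, a factor of selenocysteine insertion, was at 5.67 ± 0.11 in HFM livers and 5.52 ± 0.10 in HFS livers (SD, n = 7 mice each), and 5 HFM mice exceeded every HFS mouse. Its difference was 0.15 (standard error 0.07), with an unadjusted p of 0.0338 from limma and p = 0.0146 from the exact permutation test. The limma call was lost without HFM2, HFM3, HFS1 or HFS7 and with a trended and robust prior. Slc39a14, an importer of zinc, iron and manganese, had a difference of 0.14 (standard error 0.07). Ccs, the chaperone that gives copper to Sod1, had a difference of -0.01 (standard error 0.09), and Selenop, which carries selenium from the liver, of -0.07 (standard error 0.07); both were added after their values were seen.

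Among sources of superoxide and peroxide, 6 of 11 NADPH oxidase genes were above 0, and 1 passed an unadjusted p of 0.05 with limma, as did 6.47% of all rows. Rac2, the small GTPase that activates the oxidase of phagocytes, was at 6.20 ± 0.35 in HFM livers and 5.90 ± 0.16 in HFS livers (SD, n = 7 mice each). Its difference was 0.30 (standard error 0.13), with an unadjusted p of 0.0296 from limma and p = 0.0594 from the exact permutation test. The limma call was lost without HFM1, HFM2, HFM6, HFS1, HFS2 or HFS4, with the replicate number as a block and with no moderation. Rac2 belongs to leukocytes, and its highest and lowest values were those of HFM2 and HFM5. HFM2 also had the highest mean of the 14 macrophage markers, at 0.76, and of the 10 neutrophil markers, at 1.18, where no other mouse was above 0.41 for the neutrophil markers. The part of these cells in the Rac2 difference was not tested. The study's gene lists from these livers hold Rac2 as well, so its direction is not independent evidence either. Cybb, the catalytic subunit of that oxidase, had a difference of 0.30 (standard error 0.21) and Nox1 of 0.09 (standard error 0.07). Of 14 measured oxidases that make hydrogen peroxide 0 passed the threshold, with a median of 0.02, and Uox, urate oxidase, had a difference of 0.11 (standard error 0.10), Acox2, of bile acid side chain oxidation, of -0.08 (standard error 0.08) and Dao, D-amino acid oxidase, of 0.09 (standard error 0.09). Of 13 genes of peroxisome assembly 11 were above 0 and 0 passed it, the smallest p being those of Pex16 at 0.16 (standard error 0.08), Pex19 at 0.15 (standard error 0.08) and Pex7 at 0.12 (standard error 0.09). Of 12 regulators of mitochondrial oxidant defence 1, Foxo3, passed it in the row used. A dimmer row of Ppargc1a, added after its values were seen, also did, at 0.25 (standard error 0.11, limma p of 0.0434). Its means were 3.14 in HFM livers and 2.89 in HFS livers. The row used for Ppargc1a was at 0.16 (standard error 0.14). Foxo3, a transcription factor known to act on Sod2 and Cat, was at 6.77 ± 0.26 in HFM livers and 6.52 ± 0.23 in HFS livers (SD, n = 7 mice each), and differed by 0.25 (standard error 0.12). The unadjusted p was 0.0444 from limma and the exact permutation test gave p = 0.0798. Of the 14 fits without 1 mouse 4 kept the limma call of Foxo3, those without HFM5, HFM7, HFS1 or HFS6, and it was lost with quantile normalization, with all rows tested and with no moderation. Nrf1, a regulator of respiratory genes, had a difference of -0.14 (standard error 0.08) and Foxo1, a transcription factor that insulin restrains, of 0.18 (standard error 0.11).

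**Figure D5:**
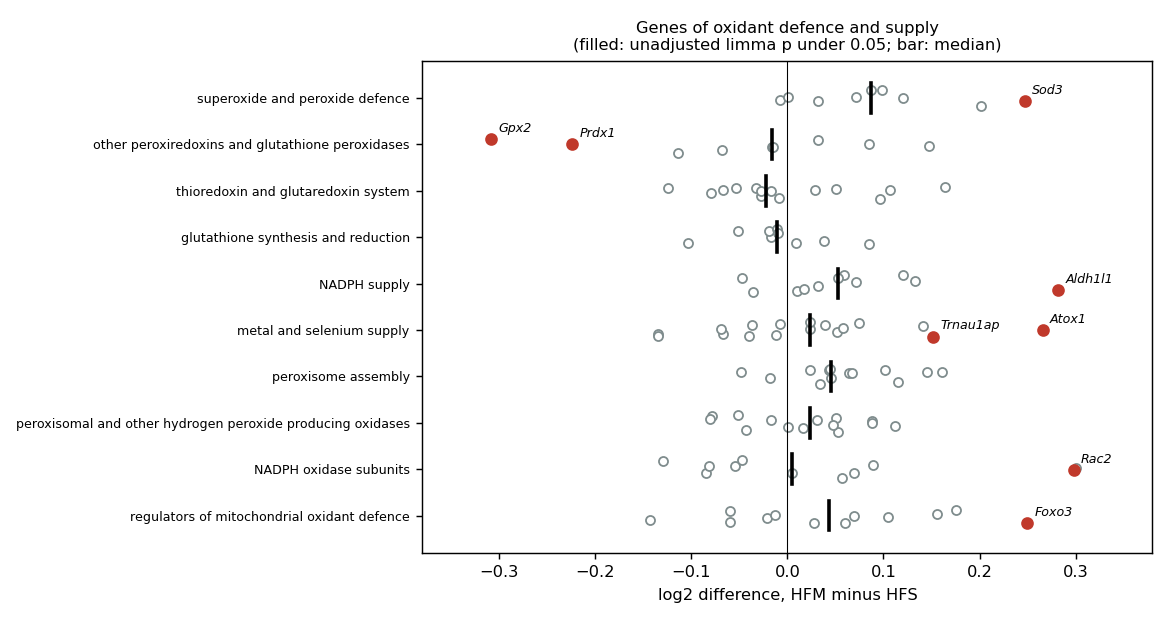
Log2 difference (HFM minus HFS) of each gene of the 9 measured defence enzymes and of 9 related lists, with 1 point per gene; filled points had an unadjusted limma p under 0.05, and bars are medians. The medians ran from -0.02 to 0.09, and 8 genes were past that threshold, 6 higher and 2 lower in HFM livers. Of all rows 6.47% were past it.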

How the data were processed

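Expression was measured on Affymetrix mouse gene arrays in 7 HFM and 7 HFS livers, with 1 mouse per array. The authors summarized the arrays in Expression Console and deposited normalized log2 values. RMA is named in the labels and PLIER in the paper, with versions and build not given in the sources used here. Such normalization sets arrays to a common level, so a shift shared by all genes would not be seen.

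The tests were run in limma 3.58.1 under R 4.3.3. The 23410 rows with at least 1 gene symbol were tested as HFM minus HFS (lmFit and eBayes, no covariate), with no filter on signal and Benjamini-Hochberg adjustment over all of them; 12146 rows were left out, and all value columns were used. The files hold no detection calls. Exact permutation tests were two-sided over 3432 assignments of the mice, for which the smallest p is 0.000583. Correlations used deviations from group means and 100000 permutations within groups. Related lists were written from textbook knowledge, and no set test was run. Named genes were the 10 members and, of each list, the 3 with the smallest p and any under 0.01, and the 3 rows with the highest r to Sod3. Of the acute phase genes and cell markers, only counts, means and a few markers are given. The members and lists were chosen with earlier results of these data known. The fit was tested on simulated arrays with known differences. Alternatives included a block for the replicate number, quantile normalization, array medians subtracted, the mean of a gene's rows, other choices of rows tested, another prior, no moderation, array weights and each mouse left out.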

Additional observations from a re-analysis of the deposited data

How the results depend on the processing

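Of 216 recomputed differences of the 9 genes, 202 kept their sign and 14 did not, and no difference passed an adjusted p of 0.05 in any setting. Those that changed sign were near 0. Sod2 was at 0.020 with array medians subtracted and at 0.0049 with array weights, Cat at -0.011 and Prdx3 at -0.032 with quantile normalization. With 1 mouse left out, Sod2 ran from -0.030 to 0.032 and Prdx3 from -0.043 to 0.042. The count of genes higher at an unadjusted p of 0.05 was 0 in place of 1 with the replicate number as a block, with quantile normalization, with all rows tested, with only the brighter rows tested and with no moderation, and it ran from 0 to 2 with 1 mouse left out. The count past both an unadjusted limma p of 0.01 and 1.2-fold ran from 0 to 1 with 1 mouse left out, the 1 being Sod3 without HFM5. The median difference of all rows was 0.03 with array medians subtracted and 0.00 in the main test. The labels number the mice of each group and name no pairing between groups. The correlation of deviations between mice of the same number ran from -0.20 to 0.14 over 7 pairs. For 0 of 7 mice was the pair of the same number the highest. Whether such mice shared a cage, a day or a batch is not known. Counts in the related lists and the acute phase list changed by over 1.5 times, or from or to 0, in 52 of 480 recomputed cases. With 7 mice a group, the arrays limit the precision of each difference to the intervals given.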
